A study of Mus musculus with 2 samples.

Results

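The genes described here encode 9 chemokine receptors, the CC receptors *Ccr2*, *Ccr4*, *Ccr6*, *Ccr7* and *Ccr8* and the CXC receptors *Cxcr3*, *Cxcr4*, *Cxcr5* and *Cxcr6*. They were taken by symbol from the deposited table and make up 9 of its 16830 genes. RNA was sequenced from CD4+CD25hiYFP+ Treg cells that were sorted from spleen and lymph nodes of C57BL/6 mice labelled 6 months old. WT Treg cells came from Foxp3-YFP-Cre mice, and USP21-ΔTreg cells from Foxp3-YFP-Cre/USP21-floxp/floxp mice, with 1 library per genotype. The floxed mice descended from a tm1a allele through a cross with Flp mice. The *Foxp3* locus, whose product defines the Treg lineage, drives the YFP-Cre fusion in both genotypes, so *Usp21* is deleted only in cells that express or once expressed *Foxp3*, and WT cells carry the same Cre. Neither genotype has a replicate, so nothing was tested and the differences below are those of one library from another. How many mice went into a library is not given in the sources used here.

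Chemokine receptors are G protein-coupled receptors that steer lymphocytes along gradients of small secreted proteins, the chemokines. In T cells, CCR7 and CXCR5 guide entry into and positioning within lymphoid organs, whereas CXCR3, CXCR6, CCR2, CCR4, CCR6 and CCR8 guide activated cells to inflamed or barrier tissues. Treg cells use the same receptors as the effector cells they restrain, and CXCR3 is placed under T-bet in Th1 cells and in Treg cells that control Th1 responses.

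*Usp21* was covered by 463 fragments in the WT library and by 198 in the USP21-ΔTreg library (11.8 and 4.56 FPKM, a fragment count corrected for transcript length and library size). The value is for the whole gene and can include RNA that lacks the deleted exons but keeps others. The libraries held 23198411 and 23418571 fragments in genes. *Foxp3* itself stood at 91.8 and 55.2 FPKM. All 4 Treg markers were present in both libraries, although *Il2ra*, which encodes the CD25 used for sorting, stood at 168 FPKM in the WT library and 19.3 FPKM in the USP21-ΔTreg library. *Ikzf2* stood at 186 and 220 FPKM and *Ctla4* at 516 and 532 FPKM. On the deposited fragment counts scaled between the libraries, all 4 were lower in USP21-ΔTreg cells. The ratios were 0.553 for *Foxp3*, 0.0909 for *Il2ra*, 0.853 for *Ikzf2* and 0.789 for *Ctla4*. Fold changes are log2 ratios of FPKM + 0.1 with WT as denominator, which slightly understate the difference of genes with low values. The calls of higher and lower used a 2-fold limit. They were made for the 10948 genes whose FPKM averaged 1 or more, a minimum that all 9 receptors passed.

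Of the 9 receptors, 4 were higher by 2-fold or more in USP21-ΔTreg cells, against 7.78% of all genes, and 3 were lower by as much, against 6.20%. By any amount, 6 of the 9 were higher, against 63.4% of all genes. The higher genes were *Cxcr3*, *Cxcr6*, *Ccr2* and *Cxcr4*, the lower genes were *Ccr6*, *Ccr4* and *Ccr8*, and *Cxcr5* and *Ccr7* lay between. The median log2 fold change of the 9 receptors was 0.91, beside 0.20 for all genes. On the deposited fragment counts, which the authors scaled between the libraries, 2 receptors were higher and 3 lower, against 4.34% and 7.93% of all genes, and the median was 0.59 beside −0.01. *Ccr2* and *Cxcr4* were the receptors that were past 2-fold on FPKM alone.

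**Figure D1:**
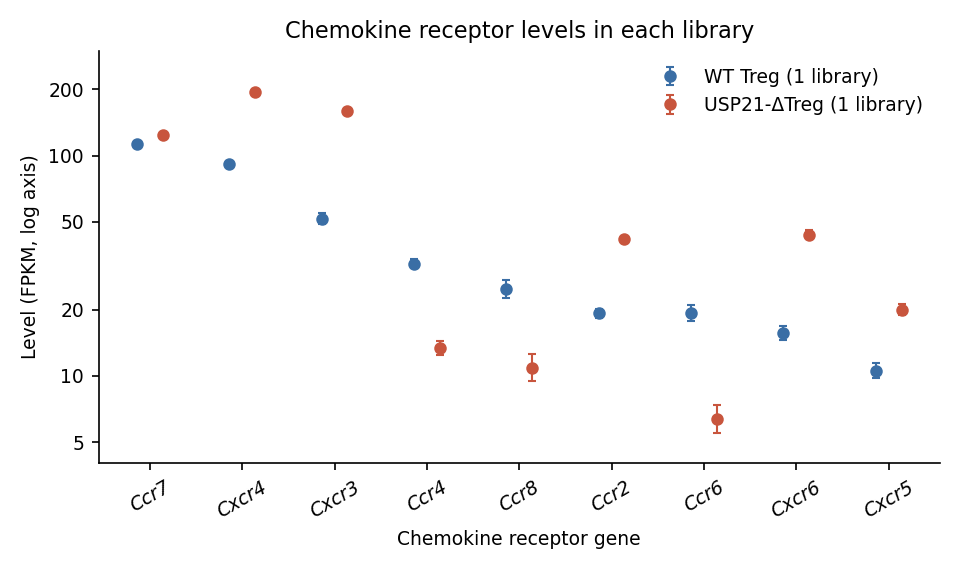
Level of each of the 9 receptors in FPKM on a log axis, in WT Treg cells (blue) and USP21-ΔTreg cells (red), with 95% Poisson intervals that cover counting error only. *Ccr4*, *Ccr8* and *Ccr6* lie lower in USP21-ΔTreg cells, *Ccr7* is nearly level at 114 and 124 FPKM, and the other 5 receptors lie higher.

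*Cxcr3*, the receptor of the interferon-induced chemokines CXCL9, CXCL10 and CXCL11, stood at 51.8 FPKM in the WT library and 160 FPKM in the USP21-ΔTreg library. These levels rested on 1279 and 4198 fragments. Its log2 fold change of 1.62 was the highest of the 9 and was at or above that of 98.6% of all genes. By scaled counts the ratio was 2.93, with a 95% interval of 2.75 to 3.12 (Clopper-Pearson, for counting error alone), so *Cxcr3* was past 2-fold on both scales. The gene (Entrez 12766) lies on the minus strand of chromosome X of mm10 from 101731535 to 101734269 in GENCODE M21, and its longest transcript has 2 exons.

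*Cxcr6*, the receptor of the membrane-bound chemokine CXCL16, stood at 15.7 FPKM in the WT library and 43.8 FPKM in the USP21-ΔTreg library (678 and 1629 fragments). It had a log2 fold change of 1.47 on FPKM, and its ratio of scaled counts was 2.14 (95% interval 1.96 to 2.35). *Cxcr6* (Entrez 80901; chromosome 9, plus strand, 123806475 to 123811760) lies within *Fyco1*, a gene on the minus strand, and its row in the deposited table is given the joint locus. *Fyco1* stood at 6.45 FPKM in the WT library and 11.1 FPKM in the USP21-ΔTreg library. The methods describe stranded libraries and the sample labels another kit, so whether strand was used to divide the reads of these genes is uncertain.

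*Ccr2*, the receptor of CCL2 that is best known for bringing monocytes and activated T cells to inflamed tissue, stood at 19.2 and 41.9 FPKM in WT Treg and USP21-ΔTreg cells, with 1860 and 3151 fragments. The log2 fold change was 1.12 on FPKM, whereas the ratio of scaled counts was 1.51 (95% interval 1.43 to 1.60) and did not reach 2. *Ccr2* (Entrez 12772) lies on the plus strand of chromosome 9 from 124101950 to 124113557.

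The lower genes *Ccr4*, *Ccr6* and *Ccr8* are receptors of activated and tissue-homing T cells. *Ccr6*, the receptor of CCL20 on Th17 cells and on Treg cells that follow them, stood at 19.2 FPKM in the WT library and 6.38 FPKM in the USP21-ΔTreg library (569 and 197 fragments). Its log2 fold change of −1.58 was the lowest of the 9, at or above that of only 2.87% of all genes, and its ratio of scaled counts was 0.309 (95% interval 0.261 to 0.364). *Ccr4*, the receptor of CCL17 and CCL22 on skin-homing T cells, Th2 cells and Treg cells, stood at 32.3 and 13.4 FPKM, or 1998 and 773 fragments. The log2 fold change was −1.27, and the ratio of scaled counts was 0.345 (95% interval 0.317 to 0.375).

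*Ccr8*, the receptor of CCL1 and a marker of Treg cells in tissues and tumours, stood at 24.8 FPKM in the WT library and 10.9 FPKM in the USP21-ΔTreg library (430 and 202 fragments). The log2 fold change was −1.18 and the ratio of scaled counts was 0.419 (95% interval 0.353 to 0.496). All 3 lower receptors were thus past 2-fold on both scales, and their counting intervals lay below 0.5. *Ccr4* (Entrez 12773; minus strand, 114490316 to 114504916) and *Ccr8* (Entrez 12776; plus strand, 120092114 to 120094906) lie on chromosome 9, and *Ccr6* (Entrez 12458; plus strand, 8236043 to 8257141) on chromosome 17. In bulk RNA of sorted cells, fewer cells that express a receptor and less of its RNA per cell cannot be told apart.

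The receptors of lymphoid organs were level or higher by less than 2-fold. *Ccr7*, the receptor of CCL19 and CCL21 that directs naive and central T cells into lymph nodes, stood at 114 FPKM in the WT library and 124 FPKM in the USP21-ΔTreg library (4054 and 4765 fragments). Its log2 fold change was 0.12 on FPKM and 0.07 on scaled counts, and its ratio of scaled counts was 1.05 (95% interval 1.005 to 1.09). *Ccr7* (Entrez 12775) lies on the minus strand of chromosome 11 from 99144196 to 99155077. *Cxcr5*, the receptor of CXCL13 through which follicular T cells and B cells enter B cell follicles, stood at 10.6 and 19.99 FPKM (595 and 1101 fragments). It had a log2 fold change of 0.91, and its ratio of scaled counts was 1.65 (95% interval 1.49 to 1.83). *Cxcr5* (Entrez 12145) lies on the minus strand of chromosome 9 from 44511787 to 44561877.

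*Cxcr4*, the receptor of CXCL12 that holds cells in bone marrow and other CXCL12-rich sites, stood at 91.9 FPKM in the WT library and 195 FPKM in the USP21-ΔTreg library (3167 and 6327 fragments). Its log2 fold change was 1.09 on FPKM, and its ratio of scaled counts was 1.78 (95% interval 1.71 to 1.86), short of 2. *Cxcr4* (Entrez 12767) lies on the minus strand of chromosome 1 from 128588199 to 128592293. Counting intervals of the ratio lay above 1 for 6 receptors and below 1 for 3, but at this depth they did so for 35.9% and 38.8% of all genes. Most genes thus differed from a ratio of 1 by more than counting error, and the intervals do not cover variation between mice.

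**Figure D2:**
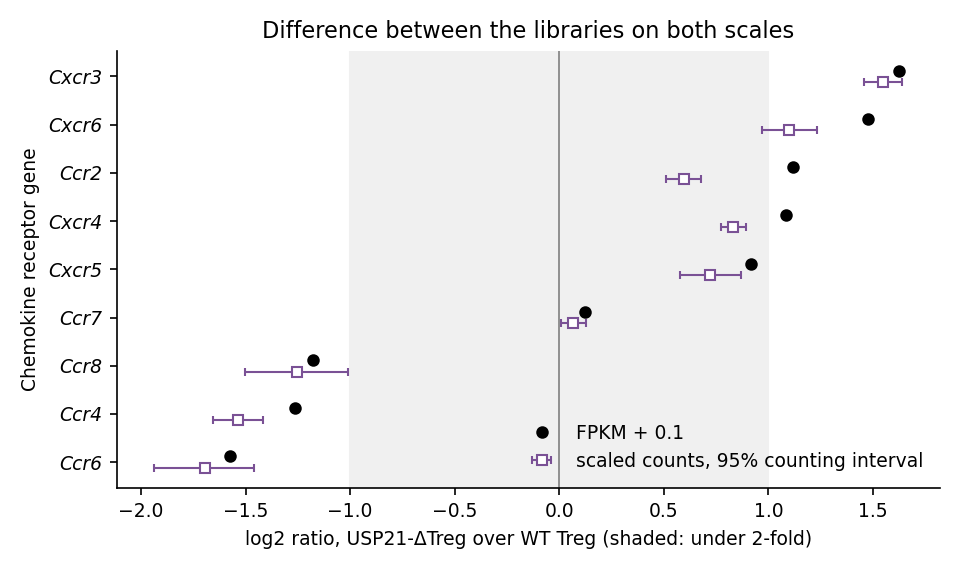
Log2 ratio of USP21-ΔTreg over WT Treg cells for each receptor, from FPKM + 0.1 (black dots) and from scaled counts (open squares, with 95% counting intervals), the shaded band marking ratios under 2-fold. *Cxcr3* and *Cxcr6* lie to the right of the band and *Ccr8*, *Ccr4* and *Ccr6* to the left on both scales, while *Ccr2* and *Cxcr4* lie outside it on FPKM alone.

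The order of the receptors by level differed between the libraries. In WT Treg cells it ran *Ccr7*, *Cxcr4*, *Cxcr3*, *Ccr4*, *Ccr8*, *Ccr2*, *Ccr6*, *Cxcr6* and *Cxcr5* from the highest FPKM to the lowest, and only the neighbours *Ccr2* and *Ccr6*, both at 19.2 FPKM, overlapped in their counting intervals. In USP21-ΔTreg cells the order was *Cxcr4*, *Cxcr3*, *Ccr7*, *Cxcr6*, *Ccr2*, *Cxcr5*, *Ccr4*, *Ccr8* and *Ccr6*, with overlap between *Cxcr6* and *Ccr2* and between *Ccr4* and *Ccr8*. Of the 36 pairs of receptors, 11 stood in the opposite order, and Spearman's rho of the levels was 0.55 across the 9 genes, which are not independent replicates. The 3 lower receptors held ranks 4, 5 and 7 in WT Treg cells and took the last 3 places in USP21-ΔTreg cells.

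Shares and ratios within a library do not depend on how the libraries were scaled to each other. The summed level of the 9 receptors was 379 FPKM in the WT library and 615 FPKM in the USP21-ΔTreg library. *Ccr7* accounted for 29.97% of it in the WT library and 20.1% in the USP21-ΔTreg library, *Cxcr3* 13.7% and 26.0%, and *Cxcr4* 24.2% and 31.7%. The share of *Ccr4*, *Ccr6* and *Ccr8* together was 20.1% in the WT and 4.98% in the USP21-ΔTreg library. Of single pairs, *Cxcr3* stood at 2.69 times the FPKM of *Ccr6* in the WT library and at 25.02 times in the USP21-ΔTreg library. On fragments that ratio was 9.48 times as high in USP21-ΔTreg cells (95% exact conditional interval 7.95 to 11.3). The ratio of *Cxcr3* to *Ccr7* was 2.79 times as high on fragments (95% interval 2.59 to 3.01) and passed from 0.456 to 1.29 on FPKM, so that *Cxcr3* stood below *Ccr7* in one library and above it in the other.

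**Figure D3:**
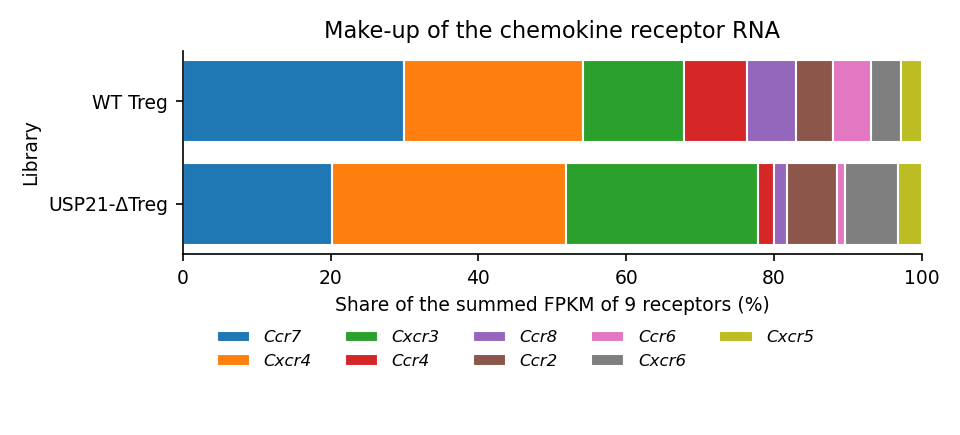
Share of the summed FPKM of the 9 receptors that each made up, in percent, in WT Treg cells (upper bar) and USP21-ΔTreg cells (lower bar). *Cxcr3* widens from 13.7% to 26.0%, and *Ccr4*, *Ccr8* and *Ccr6* together narrow from 20.1% to 4.98%.

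The gap between both scales differed from receptor to receptor. All 9 had a higher log2 fold change on FPKM than on scaled counts, as did 86.7% of all genes, by 0.06 for *Ccr7* up to 0.52 for *Ccr2*, beside a median gap of 0.19 over all genes. For *Ccr2*, 1 FPKM stood for 96.7 fragments in the WT library and 75.2 in the other, whereas for *Cxcr3* it stood for 24.7 and 26.3. The gap went with the GC content of the longest transcript, from 39.4% for *Ccr2* and 43.1% for *Cxcr6* to 54.2% for *Cxcr3*, with a Spearman's rho of −0.92 across the 9 genes. This is a description across genes of the same libraries, and the part of GC content in the gap was not tested. All receptors but *Ccr2* and *Cxcr4* had the same call on both scales.

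**Figure D4:**
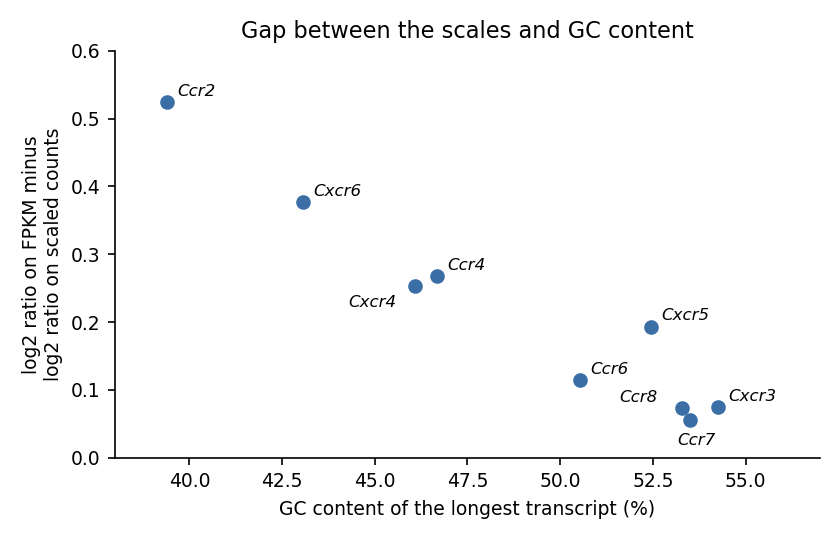
Log2 ratio on FPKM minus that on scaled counts for each of the 9 receptors (vertical axis) against the GC content in percent of its longest transcript (horizontal axis). The gap is 0.52 for *Ccr2* at a GC content of 39.4% and 0.07 for *Cxcr3* at 54.2%.

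To set the receptors that were past 2-fold on both scales beside their regulatory sequence, the 250 bases before the transcription start were read from RefSeq (GRCm38.p6), whose entries matched 7 of the 9 receptors, all but *Ccr7* and *Cxcr5*. The motifs searched on both strands were GTAAACA (forkhead factors such as FOXP3), TCACACC (T-box factors such as T-bet), TTCNNNGAA (STAT factors), TGTGGT (RUNX factors) and CACCC (KLF factors), and none of the matches overlapped another. Printed 5′ to 3′ in the direction of the gene, with matched motifs in capitals, the higher receptors *Cxcr3* (chrX:101734148-101734397, minus strand) and *Cxcr6* (chr9:123806227-123806476, plus strand) each held 1 RUNX motif:
Cxcr3: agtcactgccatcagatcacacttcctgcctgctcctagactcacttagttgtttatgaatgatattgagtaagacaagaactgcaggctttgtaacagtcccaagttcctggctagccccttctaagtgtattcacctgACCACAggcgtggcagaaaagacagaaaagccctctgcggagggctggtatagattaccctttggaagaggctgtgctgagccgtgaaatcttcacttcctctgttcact
Cxcr6: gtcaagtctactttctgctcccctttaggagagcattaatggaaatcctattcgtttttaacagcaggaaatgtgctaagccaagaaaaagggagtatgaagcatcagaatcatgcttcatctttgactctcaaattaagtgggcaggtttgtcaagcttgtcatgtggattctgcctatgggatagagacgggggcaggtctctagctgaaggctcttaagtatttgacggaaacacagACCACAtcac
The lower receptors were *Ccr6* (chr17:8235793-8236042, plus strand, the upstream of 2 starts), *Ccr4* (chr9:114496545-114496794, minus strand) and *Ccr8* (chr9:120091883-120092132, plus strand):
Ccr6: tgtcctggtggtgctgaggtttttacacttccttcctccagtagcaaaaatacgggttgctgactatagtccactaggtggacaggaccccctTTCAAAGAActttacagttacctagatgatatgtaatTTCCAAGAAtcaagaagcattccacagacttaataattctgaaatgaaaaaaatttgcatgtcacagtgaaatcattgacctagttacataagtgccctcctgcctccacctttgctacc
Ccr4: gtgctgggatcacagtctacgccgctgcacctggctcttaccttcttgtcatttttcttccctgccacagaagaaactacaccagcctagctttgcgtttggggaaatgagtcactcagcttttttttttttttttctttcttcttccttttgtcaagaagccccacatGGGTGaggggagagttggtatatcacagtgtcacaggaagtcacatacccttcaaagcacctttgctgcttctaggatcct
Ccr8: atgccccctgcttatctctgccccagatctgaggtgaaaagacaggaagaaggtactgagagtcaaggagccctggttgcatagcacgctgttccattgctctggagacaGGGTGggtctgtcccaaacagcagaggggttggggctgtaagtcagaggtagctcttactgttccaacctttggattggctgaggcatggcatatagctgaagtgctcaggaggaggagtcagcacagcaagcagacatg
*Ccr6* held 2 STAT motifs, which began 157 and 120 bases before the start, and *Ccr4* and *Ccr8* held 1 KLF motif each, as did the higher receptor *Cxcr4*. The other start of *Ccr6* held none of the motifs. The window of *Ccr4* lies within the span of the gene in GENCODE M21, which reaches to 114504916, so it is not upstream of the outermost start. The window of *Cxcr4* ends at 128592300 on the minus strand, whereas GENCODE M21 starts the gene at 128592293. Of all 32851 RefSeq promoter entries, 14.1% held the RUNX motif, 7.02% the STAT motif, 52.0% the KLF motif, 3.33% the T-box motif and 3.17% the forkhead motif in the same window. No T-box or forkhead motif was found in the windows of the 7 receptors, which says only that these letters are not in them. A match is a description and not evidence of binding.

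Chromosome 9 holds 5 of the 9 receptor genes, and they did not share a direction. *Ccr2*, *Cxcr5* and *Cxcr6* had higher levels in USP21-ΔTreg cells, whereas *Ccr4* and *Ccr8* had lower ones, as given above.

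Of the other 9 conventional receptor genes, 3 passed the minimum, and all of these were higher by any amount, against 63.4% of all genes. *Ccr9* passed it only through the USP21-ΔTreg library, where it was higher, so the filter had a part in that count. Over all 9, with the genes below the minimum included, 7 were higher on FPKM. *Ccr9*, the gut-homing receptor of CCL25, stood at 0.883 FPKM in the WT library and 2.01 FPKM in the USP21-ΔTreg library (log2 fold change 1.10, 0.78 on scaled counts), and *Ccr3*, best known from eosinophils, at 1.89 and 3.59 FPKM (0.89 and 0.40). *Ccr9* alone among those that passed was past 2-fold, on FPKM and not on counts. Of 4 atypical receptors in the table only *Ccrl2*, which binds chemerin and does not signal like the others, passed the minimum, at 19.1 FPKM in the WT library and 6.74 FPKM in the USP21-ΔTreg library. The log2 fold change was −1.49 on FPKM and −1.72 on scaled counts.

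Chemokine ligands were lower and higher in like numbers. The table held 25 ligand genes. The minimum was passed by 10 of them, with a median log2 fold change of −0.05. By 2-fold or more, 3 of the 10 were lower and 2 higher, against 6.20% and 7.78% of all genes. Of these, *Ccl20* among the lower and *Ccl25* among the higher passed the minimum only through the library in which each was higher. The CXCR3 ligand gene *Cxcl10* stood at 136 FPKM in the WT library and 15.7 FPKM in the USP21-ΔTreg library (2816 and 312 fragments, log2 fold change −3.11), the opposite direction to *Cxcr3* itself. Its row shares a locus with *Cxcl11*, so reads of these genes may be divided differently than given. *Ccl22*, a ligand of CCR4, stood at 7.78 and 2.49 FPKM (315 and 91 fragments, −1.60), and *Ccl20*, the ligand of CCR6, at 2.25 and 0.226 FPKM (33 and 3 fragments, −2.85). For *Ccl20*, with few fragments, the ratio of scaled counts was 0.0811 (95% interval 0.0159 to 0.258). For CCR4 and CCR6, receptor and ligand were thus both lower in USP21-ΔTreg cells. *Ccl5*, a chemokine of activated T cells and NK cells, was higher at 17.6 and 76.3 FPKM (135 and 610 fragments, 2.11), as was *Ccl25*, the CCR9 ligand, at 0.855 and 2.22 FPKM (1.28).

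The genes that carry the signal from the receptors, among them G protein subunits, receptor kinases, arrestins and regulators of Rac and Rap1, differed less. None of the 30 that passed the minimum was past 2-fold in either direction, against 7.78% of all genes higher and 6.20% lower. Their median log2 fold change was 0.29 on FPKM and 0.07 on scaled counts. The largest differences on FPKM, all upward, were those of *Stk4*, a kinase in integrin activation (0.99), *Grk5*, a receptor kinase (0.90), *Dock2*, the Rac activator of lymphocyte migration (0.73), and *Rap1b*, a GTPase of integrin activation (0.71). *Rap1b* had 0.25 on scaled counts. The lowest value of a signalling gene was −0.67 on FPKM and −0.80 on scaled counts. Of 16 other homing genes, 4 were higher by 2-fold or more, against 7.78% of all genes. No homing gene was lower by as much, against 6.20% of all genes. *Itga4*, which encodes the integrin α4 chain, had 26.2 FPKM in the WT library and 92.1 FPKM in the USP21-ΔTreg library (1.81), and *S1pr1*, the receptor for exit from lymphoid organs, at 90.3 and 226 FPKM (1.32). *Itgb1*, the integrin β1 chain, had a log2 fold change of 1.21 and *Gpr15*, a gut-homing receptor, one of 1.08. On scaled counts only *Itga4* and *S1pr1* of the homing genes remained past 2-fold, at 1.35 and 1.06, against 4.34% of all genes higher.

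**Figure D5:**
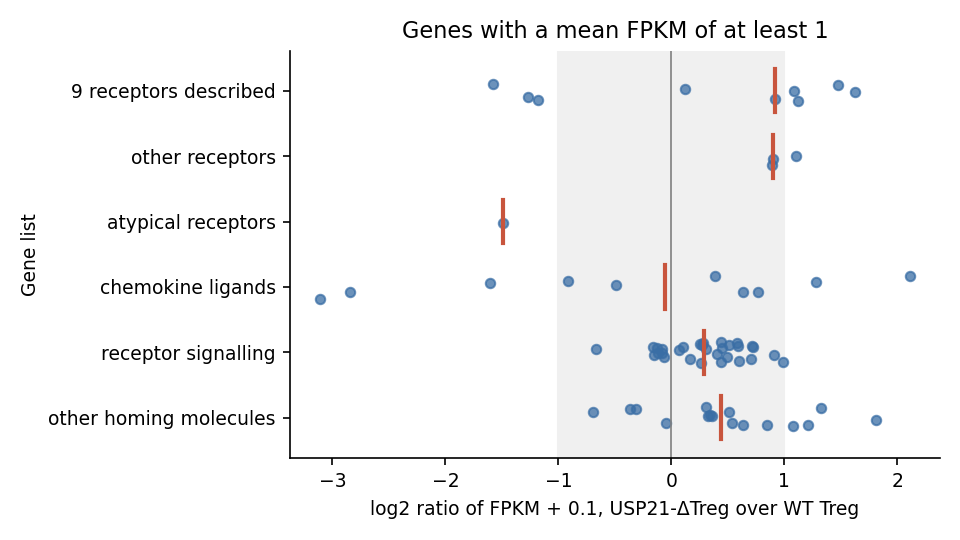
Difference between the libraries as log2 ratio of FPKM + 0.1 (WT Treg as denominator) for each gene that passed the minimum (dots, spread vertically for legibility), by gene list, with the list median as a red line and ratios under 2-fold shaded. The 9 receptors spread from −1.58 to 1.62, while the 30 signalling genes all lie within the shaded band.

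Markers of NK and CD8 T cells and of B cells were higher in USP21-ΔTreg cells, whereas those of myeloid cells and of follicular helper T cells were mixed. On FPKM, 63.4% of all genes were higher by any amount, 7.78% were higher by 2-fold or more and 6.20% lower by as much. These shares are over the genes that passed the minimum, whereas counts over a whole marker list include genes below it. All 9 NK and CD8 T cell markers had a higher FPKM, with summed levels of 14.9 FPKM in the WT library and 46.2 FPKM in the USP21-ΔTreg library. Of the 6 that passed the minimum, all were higher, *Klrd1* (0.699 and 15.8 FPKM) and *Cd8a* (1.02 and 5.01 FPKM) by 2-fold or more and the other 4 by less. *Klrd1* passed the minimum only through the USP21-ΔTreg library, where it was higher. Counting intervals of the ratio lay above 1 for 4 of the 6, against 35.9% of all genes. NK and CD8 T cells express *Cxcr3* and *Cxcr6*. All 9 B cell markers, from cells that express *Cxcr5* and *Ccr7*, were higher as well, with summed levels of 12.1 and 29.9 FPKM, and none of either list was at 0. Of the 9 B cell markers, 4 fell below the minimum, and the 5 that passed it were all higher. Of 11 myeloid and dendritic markers, from cells that express *Ccr2*, 8 were higher by any amount on FPKM. Among those that passed the minimum, 2 of 3 were higher, against 63.4% of all genes. The summed level of the 11 markers was 28.5 FPKM in WT and 40.2 FPKM in USP21-ΔTreg cells, but their summed fragments were 853 and 783. *Zbtb46* alone made up 602 of the 853 fragments in WT and 273 of the 783 in USP21-ΔTreg cells, so the summed fragments largely follow this gene. Of the 3 that passed the minimum, *Zbtb46* was lower (log2 fold change −1.19). *Lyz2* was higher (54 and 163 fragments, 1.61), and *S100a8* was higher by less than 2-fold (75 and 135 fragments, 0.92). *Fcgr1* had 5 fragments in WT and none in USP21-ΔTreg cells. Of 8 markers of follicular helper T cells, which share *Cxcr5*, 6 passed the minimum. By 2-fold or more, 3 of the 6 were higher and 2 lower on FPKM, but 2 higher and 3 lower on scaled counts. *Ascl2*, among the lower genes, passed the minimum only through the WT library. The median log2 fold change of the 6 was 0.11 on FPKM and −0.11 on scaled counts. The summed levels of the 8 markers, 527 and 682 FPKM, stood beside 30255 and 29275 fragments. The CD4 T cell markers were higher too, in 5 of 5 cases, with summed levels of 703 and 1248 FPKM. The part of such cells in the receptor levels was not tested.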

How the data were processed

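The authors filtered out ribosomal and poor reads, aligned what was left to mm10 in TopHat2 2.0.9 and estimated known genes in Cufflinks 2.1.1. Their deposited FPKM values correct for transcript length and library size. A second pair of deposited columns holds estimated counts of fragments, scaled from one library to the other. The commonest value above 0 was taken as 1 fragment, worth 1.03 in the WT library and 0.918 in the other, and 97.2% and 97.1% of values above 0 were whole numbers of fragments within 0.02. Symbols turned into dates, 23 in all, were restored by Entrez identifier.

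Differences were log2 ratios of FPKM + 0.1, for genes with a mean of at least 1 FPKM, with a 2-fold limit, and log2 ratios of scaled counts with 1 fragment added. The ratios of scaled counts given with intervals had nothing added. Intervals are Clopper-Pearson for ratios, Poisson for levels and conditional for ratios of ratios, at 95%. They cover counting error only, and fragments were not counted by molecular identifier. Calculations used scipy 1.17.1 with numpy 2.4.6, and pandas 2.3.3 under Python 3.11.15, plots used matplotlib 3.10.9, coordinates came from GENCODE M21 on the same assembly, and the steps were tested on simulated libraries. The receptors and gene lists were chosen with earlier results of these data known. Named genes were the 9 receptors, *Usp21*, *Foxp3*, markers and, from each other list, up to 4 genes with the largest difference plus up to 2 past 2-fold in the opposite direction. One gene of the lists is counted in them but not reported here. Members of the lists with no row in the table were not analysed here.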

Additional observations from a re-analysis of the deposited data

How the results depend on the processing

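No receptor that was past 2-fold changed direction under any alternative run, and of 81 single values of the 9 receptors under the alternatives 18 moved by more than their counting error. A filter on the mean cannot alter the fold change of a single gene, so the values under the filters repeat the main ones in these counts. *Cxcr3*, *Cxcr6*, *Ccr4*, *Ccr6* and *Ccr8* were past 2-fold under every scale and pseudocount. *Ccr2* and *Cxcr4* were so under 7 of 10 settings, the main one included, but not when median centred or on either count scale. *Cxcr5* and *Ccr7* were past 2-fold under none, with *Ccr7* between −0.07 and 0.22. Higher receptors, 4 as reported, numbered 2 when median centred, 2 on scaled counts, 2 on fragments scaled to the library total (a scale chosen after seeing the data) and 1 at a 3-fold limit, at which 0 were lower. Median centring takes 0.20 from every fold change. The median of the receptors was 0.72 when median centred, 0.59 on scaled counts and 0.75 on fragments scaled to the library total. The median of the other receptors and ligands, 0.51, was −0.039 without a filter and −0.43 at a mean of at least 5 FPKM. That of the signalling genes, 0.29, was 0.10 when median centred, 0.23 after upper quartile scaling, 0.070 on scaled counts and 0.22 on fragments scaled to the library total, and that of the homing genes, 0.44, was 0.24 when median centred. Of the 10948 genes, 852 were higher and 679 lower as reported. The numbers were 482 and 573 with 1 FPKM added, 488 and 913 when median centred and 475 and 868 on scaled counts. They were 715 and 693 on fragments scaled to the library total, 2506 and 1326 at a 1.5-fold limit and 178 and 312 at a 3-fold limit. Without a filter they were 1460 and 1011 of 16830 genes. At a mean of at least 5 FPKM they were 447 and 513, out of fewer genes than the 10948. The order of the receptors, with 11 of 36 pairs reversed on FPKM, had 9 reversed on fragments per kilobase of the longest transcript. Beyond the altered scale, filter or limit itself, the cause was not tested. No paired analysis was possible because a single library stands for each genotype. The 9 receptors had at least 197 fragments in each library, and the part of depth was not tested.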
